A study of Homo sapiens with 8 samples.

Results

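The 35 genes described here are regulators and target genes of the transcription factor NF-kB together with inflammatory cytokines, followed on 8 arrays with 2 colours in cancer cell lines. They were chosen by name. A probe belonged to a gene when the array annotation gave exactly that symbol, and all 35 were found among the 43317 gene names on the array, on 43 probes. For the 7 genes with more than 1 probe (RELA, BCL2A1, IL6, IL32, LIF, CSF1 and CSF3), the probe with the highest mean intensity over the 8 arrays stood for the gene.

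On every array, Cy3 carried RNA of mock cells, which the labels give as not transfected, and Cy5 carried RNA of the same line transfected with an RNA in Lipofectamine RNAiMAX. The renal cancer lines A498 and 786-O each received mature miR-139-5p on 1 array and its partner strand miR-139-3p on another. MDA-MB-231 breast cancer cells received si-GINS1_1 or si-GINS1_2, called siRNA 1 and siRNA 2 here, which target the replication factor GINS1 (1 array each), and HCT116 colorectal cancer cells received miR-490-5p or miR-490-3p (1 array each). Replicates of a miR-139 strand were thus different cell lines and those of si-GINS1 were different siRNAs. The p-values therefore measure only the spread between these arrays, pooled over the 3 groups of 2 arrays. An effect of transfection itself cannot be told apart from that of the transfected RNA in any comparison with mock, and no array had its dyes swapped.

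NF-kB is a dimer of the proteins encoded by NFKB1, NFKB2, REL, RELA and RELB. In resting cells, inhibitors such as IkB alpha (NFKBIA) hold it in the cytoplasm, until receptors for tumour necrosis factor or interleukin-1 start a kinase cascade that degrades the inhibitor. The dimer then binds kappaB sites in promoters and raises cytokines (IL6, CSF2), adhesion molecules (ICAM1), survival genes (BIRC3) and its own brakes (NFKBIA, TNFAIP3). A second, non-canonical route through the lymphotoxin beta receptor processes NFKB2 and uses RELB.

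The transfected miRNAs are shown first because each comparison with them asks what 1 mature strand does. The sequences are those of RefSeq on GRCh38.p14, with the seed (bases 2 to 8, which pairs with target messages) in capitals. miR-139 lies on chromosome 11 and miR-490 on chromosome 7.
miR-139-5p: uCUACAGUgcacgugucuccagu
miR-139-3p: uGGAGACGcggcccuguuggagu
miR-490-5p: cCAUGGAUcuccaggugggu
miR-490-3p: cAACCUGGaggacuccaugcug
All 4 seeds differ, also between the strands of a duplex.

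Promoters of the genes were searched for the kappaB consensus (a motif of length 10, by name, on both strands) in a window from 250 bases before to 50 after the transcription start, for the first listed entry of a gene in RefSeq on GRCh38.p14. Of the 35 genes 27 had a promoter in that table, and 12 of these (44.4%) held a match, against 1562 of 27305 promoters in all (5.72%). They were NFKB1, REL, NFKBIA, NFKBIZ, TNFAIP3, BIRC3, BCL3, IL6, IL32, CCL20, VCAM1 and PTX3. RELA, NFKB2, TRAF1, RELB, SOD2, CSF2, ICAM1 and IL1B, which the results also take up, are not among the 12. Whether each lacked a match or a promoter in that table is not given here. The following windows belong to some of the genes with a match, chosen because the results take them up. The match (on either strand) is in capitals and each window is read along the strand of its gene.
TNFAIP3, chr6:137867182-137867211: acgtgactttGGAAAGTCCCgtggaaatcc
BIRC3, chr11:102317275-102317304: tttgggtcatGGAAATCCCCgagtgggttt
IL6, chr7:22727117-22727146: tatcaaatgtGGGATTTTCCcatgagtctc
IL32, chr16:3065294-3065323: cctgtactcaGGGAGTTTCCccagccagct
Counted from the transcription start, the matches begin at -67 in TNFAIP3, -199 in BIRC3, -73 in IL6 and -99 in IL32. A match describes these letters and is no measure of binding. TNFAIP3, BIRC3 and IL32 each held a further match, that of IL32 shifted by 1 base on the opposite strand.

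Between 24983 and 29688 of 58201 probes per array were well above background, by the flag of the scanner software, in at least 1 channel. GINS1 lay at -1.31 with siRNA 1 and -1.92 with siRNA 2 (log2 ratio of transfected over mock) and between -0.11 and 0.55 on the other 6 arrays. Many cell type markers were well above background on both mock arrays of more lines than the label would give, so levels (log2 intensity) are set side by side. PAX8 and PAX2, factors of renal epithelium, were highest in A498 (8.23 and 8.47) and 786-O (8.16 and 7.90), but PAX8 was also measured in MDA-MB-231 (6.76) and HCT116 (6.36), and PAX2 in HCT116 (6.94). EPCAM was measured in all 4 lines and CDH1 in MDA-MB-231 and HCT116, both highest in HCT116 (CDH1 9.29). CDX2 was measured in HCT116 alone, and the gut marker VIL1 in no line. The luminal breast markers ESR1 and KRT18 were measured in every line. Of 5 leukocyte markers on the array, PTPRC (6.03 to 6.21) and ITGAM (5.95 to 6.09) were measured in all 4 lines, CD3E in A498 and 786-O (6.22 and 6.25), and MS4A1 in none. CD14 reached 8.42 in MDA-MB-231 and 6.76 or less elsewhere. The part of these markers in the cytokine values was not tested.

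Mock cells of the 4 lines started from different levels. Of the 35 genes, mock A498 had 30 well above background on both arrays, MDA-MB-231 had 28, 786-O had 27 and HCT116 had 20. Of all genes on the array, 42.5% were so in A498, 46.1% in MDA-MB-231, 40.9% in 786-O and 44.1% in HCT116. Among the 30 genes that were so in at least 1 line, A498 had the highest level for 16, MDA-MB-231 for 8, 786-O for 3 and HCT116 for 3. In all, 26 genes spanned at least 1 log2 unit between the highest and the lowest line. No share of all genes stands beside the counts of highest lines and of this span. Levels are the mean log2 normalized Cy3 intensity of the 2 arrays of a line, compared for 1 probe across lines only. No test was run, because the file names carry 1 common number for the mock of both arrays of a line, and the labels do not say whether that was 1 extract. Over all genes, the gap between both mock channels of a line had an SD between 0.07 and 0.10.

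Several cytokines stood far apart between the lines. IL6, a cytokine of acute inflammation, was highest in A498 (9.45), then 786-O (7.52) and MDA-MB-231 (6.98), and was not well above background in HCT116. The survival factor BIRC3 lay at 9.83 in A498, 9.74 in MDA-MB-231, 7.63 in 786-O and 6.66 in HCT116. The gap between the top 2 lines (0.09) was within the largest difference between arrays of 1 line for that probe (0.11). IL32, a cytokine of epithelial and immune cells, ranked from A498 (9.35) over 786-O (8.40) and MDA-MB-231 (7.37) to HCT116, where it was well above background on 1 of the arrays.

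The chemokine CCL2, which draws in monocytes, was well above background on both mock arrays in A498 alone, at 8.44. The adhesion molecule VCAM1 was measured in 786-O (8.89) and A498 (7.59) and not in MDA-MB-231 or HCT116. The pattern recognition protein PTX3 (9.11) and the acute phase gene SAA1 (8.86) were highest in MDA-MB-231. SAA1 has a close copy, SAA2, whose transcripts its probe may also bind. IL18, a cytokine of the interleukin-1 family that epithelia store as a precursor, was highest in HCT116 at 8.49, and was not well above background in 786-O.

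The dimer subunits were measured in all 4 lines and varied less. REL spanned 0.23 log2 units and NFKB2 0.73, whereas RELB spanned 2.16, from 8.88 in 786-O to 11.05 in A498. In HCT116 13 genes were not well above background on either mock array, among them IL1B, IL6, CSF2, CCL2, VCAM1 and SAA1. IL1A, TNF, CSF3 and PTGS2 were not well above background on any mock array of any line, and PTGS2, which encodes the inducible cyclooxygenase, was not measured in either channel of any array.

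**Figure D1:**
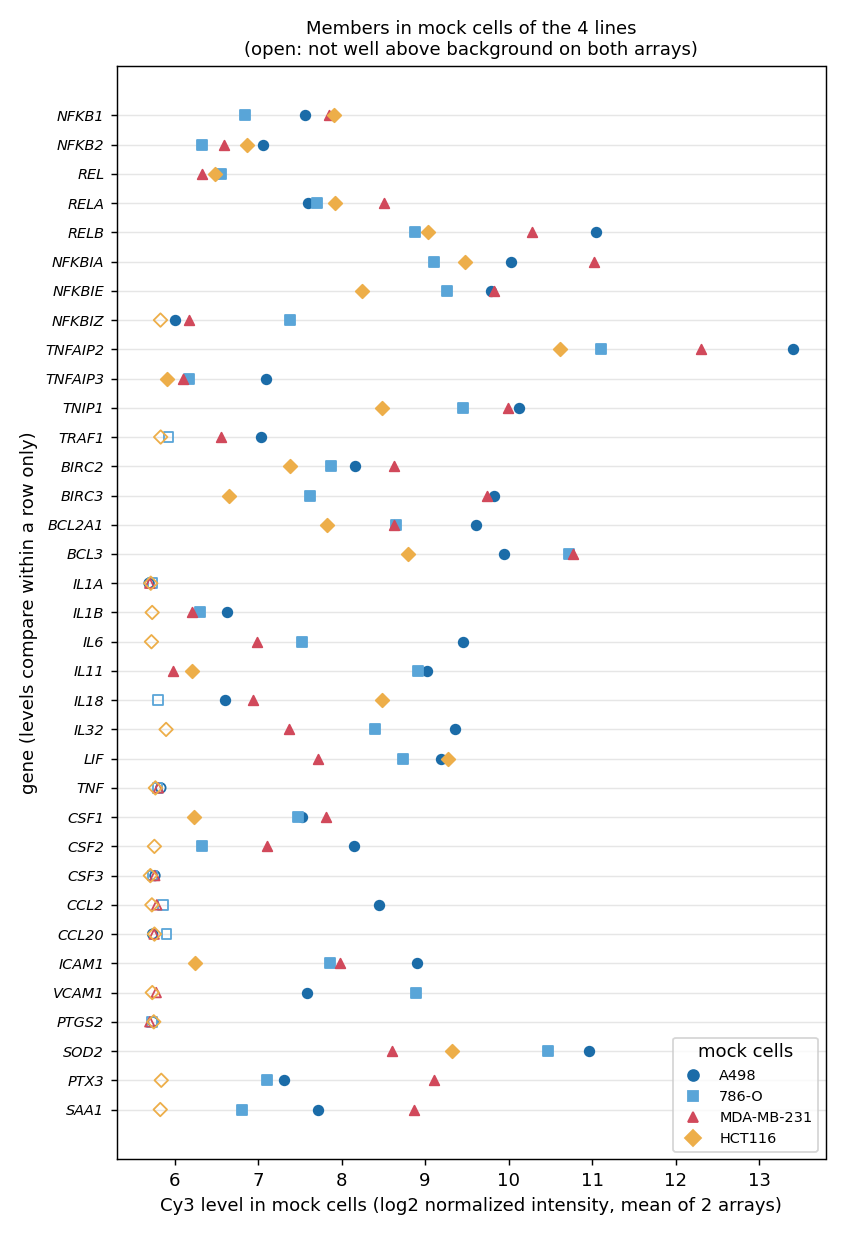
Cy3 level of each gene in mock cells (x axis, log2 normalized intensity, mean of 2 arrays) for A498, 786-O, MDA-MB-231 and HCT116, with open symbols where the probe was not well above background on both arrays. Points compare within a row only. A498 is the highest line for 16 of the 30 genes measured on both mock arrays of at least 1 line, and in HCT116 13 genes were well above background on neither array.

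The si-GINS1 arrays address what changes in MDA-MB-231 when GINS1 is lowered. limma called 5 of the 35 genes (14.3%), all higher, where of 21369 genes it called 7.40%, 3.56% higher and 3.85% lower. These were the subunits RELA and NFKB2, the brake TNFAIP3, the adaptor TRAF1 and the cytokine IL32. Of the 30 genes that could be tested, TNF and CSF3 through the transfected channel alone, 25 lay above 0, against 52.6% of all genes. Their median log2 ratio was 0.43 against 0.01 over all genes. The other 5 genes (IL1A, CCL2, CCL20, VCAM1 and PTGS2) were too dim on at least 1 of the arrays.

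In the values that follow, the HCT116, A498 and 786-O values are given in the order 5p then 3p. RELA, the main activating subunit (hg19 chr11:65421651-65421710), lay at 0.73 with siRNA 1 and 0.44 with siRNA 2, against 0.32 and 0.37 in HCT116, -0.03 and 0.05 in A498, and 786-O had 0.09 and 0.06. Both siRNA values were the highest of the 8, but the HCT116 arrays were close behind that of siRNA 2. The mean of 0.58 ± 0.21 (SD, n = 2) passed the test (limma adjusted p 0.0295). Its second probe lay at 0.26, with a limma adjusted p of 0.0799. Taking off the mean of the 4 group values in other cell lines, as a way to remove a dye bias of the probe, left 0.39 for RELA.

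NFKB2, the precursor of the p52 subunit (hg19 chr10:104161053-104161229), lay at 0.52 with siRNA 1 and 0.32 with siRNA 2, against -0.05 and -0.16 in HCT116, 0.08 and 0.07 in A498, and 786-O had 0.03 and -0.02. The siRNA arrays did not overlap the other 6. Its mean was 0.42 ± 0.15 (SD, n = 2; limma adjusted p 0.0358). RELB, its partner in the non-canonical dimer (hg19 chr19:45541385-45541444), lay at 1.15 with siRNA 1 and 0.52 with siRNA 2, against 0.01 and 0.91 in HCT116, 0.20 and -0.20 in A498, and 786-O had -0.10 and -0.19. The array of miR-490-3p was thus above that of siRNA 2. The mean of 0.83 ± 0.44 (SD, n = 2) did not pass the test (limma adjusted p 0.0541).

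TNFAIP3, known as A20, edits ubiquitin chains and shuts the pathway off (hg19 chr6:138203679-138203738). It lay at 0.50 with siRNA 1 and 0.75 with siRNA 2, against -0.04 and 0.24 in HCT116, 0.15 and -0.14 in A498, and 786-O had -0.03 and 0.14. Both siRNA values were above the other 6, with a mean of 0.62 ± 0.18 (SD, n = 2; limma adjusted p 0.0396). The mock level of 6.11 was near the dimmest signal counted as well above background on those arrays (5.77 and 5.80). In such dim probes the offset of the background correction pulls ratios toward 0, and the scanner's own ratio gave a mean of 1.45.

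TRAF1, an adaptor of tumour necrosis factor receptors (hg19 chr9:123664674-123664733), lay at 0.49 with siRNA 1 and 0.37 with siRNA 2, against 0.20 and -0.24 in A498, and 786-O had 0.04 and -0.08. In HCT116 it was not well above background. The mean was 0.43 ± 0.09 (SD, n = 2; limma adjusted p 0.0398), and 0.74 by the scanner ratio. IL32 (hg19 chr16:3119308-3119367) lay at 0.96 with siRNA 1 and 0.60 with siRNA 2, against -0.02 and 0.05 in HCT116, -0.19 and 0.11 in A498, and 786-O had 0.10 and -0.13. The siRNA arrays stood clear of all others. Its mean was 0.78 ± 0.25 (SD, n = 2; limma adjusted p 0.0371), and its second probe was called as well, at 0.73 (limma adjusted p 0.0330).

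The genes with the highest means, IL6 and SOD2, were not called, and their values differed between the siRNAs. IL6 (hg19 chr7:22771207-22771266) lay at 0.88 with siRNA 1 and 3.04 with siRNA 2, against 0.30 and -0.78 in A498, and 786-O had -0.04 and -0.21. It was not well above background on the HCT116 arrays. The siRNA 2 array was the highest by over 2 log2 units, at 8.21-fold the mock level, and the mean of 1.96 ± 1.53 (SD, n = 2) had a limma adjusted p of 0.0965. A dimmer second probe, for a predicted transcript, was well above background on the siRNA 2 array only and lay at 0.17 there (2.49 by the scanner ratio).

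SOD2, the mitochondrial superoxide dismutase and a known NF-kB target (hg19 chr6:160103590-160103649), lay at 0.79 with siRNA 1 and 1.79 with siRNA 2, against -0.03 and 0.29 in HCT116, -0.48 and -0.29 in A498, and 786-O had -0.09 and -0.10. Both siRNA values were above all others. The mean of 1.29 ± 0.71 (SD, n = 2) was just short of the threshold (limma adjusted p 0.0541). NFKBIA had a mean of 0.62 ± 0.38 (SD, n = 2; limma adjusted p 0.0693), with 0.89 on the siRNA 1 array as its highest value.

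The spread that these calls use comes from the 3 groups of 2 arrays together, which includes the miR-139 arrays in A498 and 786-O. The miR-490 groups of 1 array add nothing to it. limma called 0 of the 30 genes in a fit of the 2 si-GINS1 arrays alone, with the scanner ratio, under a robust prior with a variance trend, and with dye bias removed (smallest adjusted p 0.0614). Of all genes it called 0% with those arrays alone and 0% under that prior. It called 0.29% with the scanner ratio and 2.54% with dye bias removed. The means of the 5 genes stayed between 0.39 and 0.79 with dye bias removed and lay between 0.62 and 1.45 by the scanner ratio. A fit without 1 of the si-GINS1 arrays takes its spread from the miR-139 arrays alone, so its calls are not counted here. At an unadjusted p under 0.05 the fit reported here held 15 of the 30, all higher, against 26.8% of all genes.

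**Figure D2:**
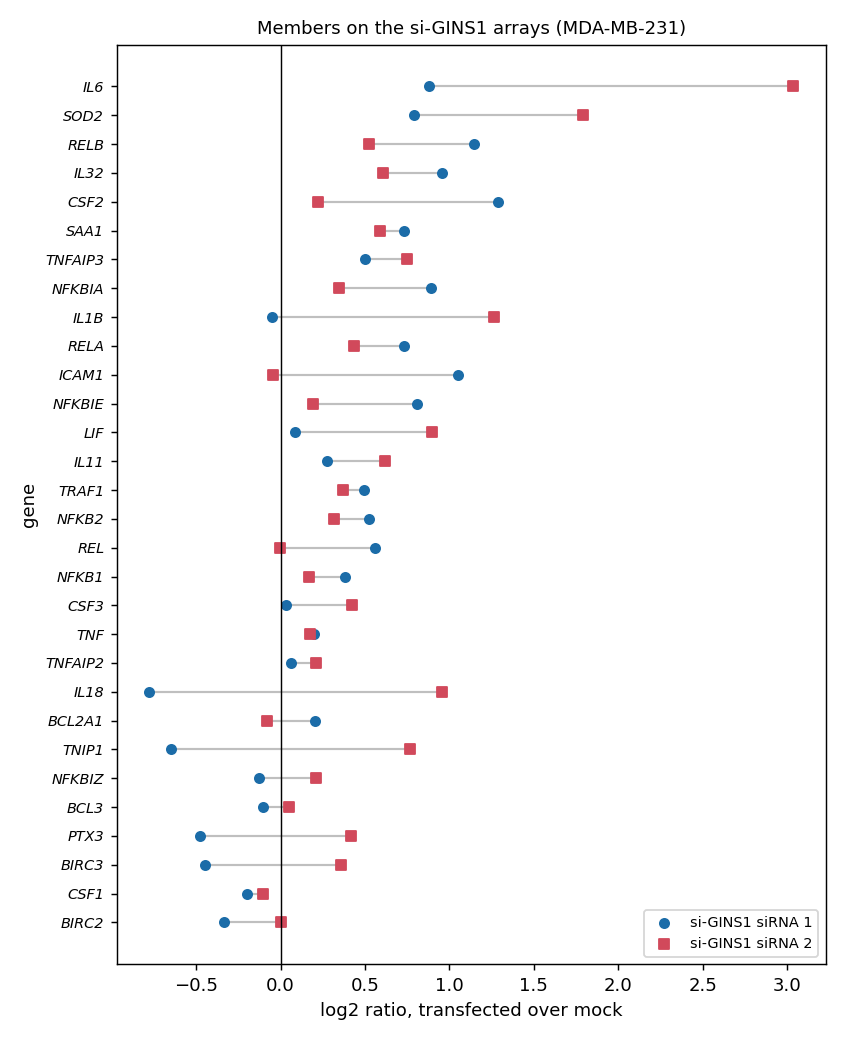
Log2 ratio of transfected over mock (x axis) for each gene well above background on both si-GINS1 arrays, with circles for siRNA 1 and squares for siRNA 2, ordered by their mean. Most pairs lie right of 0, RELA, NFKB2, TRAF1, TNFAIP3 and IL32 with short lines, and IL6, IL18, TNIP1 and IL1B with the widest gaps.

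Set against each other, the siRNAs differed by at least 1 log2 unit in 7 of the 30 genes, with 1 array a side and so no test. CSF2 and ICAM1 lay higher with siRNA 1, where 2.79% of genes did so. TNIP1, IL1B, IL6, IL18 and SOD2 lay higher with siRNA 2, where 2.56% did so. SOD2 was at the edge of this size, and differed by -0.79 (siRNA 1 minus siRNA 2) with median centring. CSF2, the granulocyte-macrophage growth factor (hg19 chr5:131411452-131411511), lay at 1.29 with siRNA 1 and 0.22 with siRNA 2. ICAM1, which binds leukocytes (hg19 chr19:10396298-10396358), lay at 1.05 with siRNA 1 and -0.04 with siRNA 2, against -0.21 and 0.00 in HCT116, -0.24 and 0.32 in A498, and 786-O had -0.14 and -0.06.

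IL1B, the classic inflammasome cytokine (hg19 chr2:113587429-113587488), lay at -0.05 with siRNA 1 and 1.26 with siRNA 2. It lay at -0.03 and -0.08 in A498, and 786-O had 0.01 and 0.04, and in HCT116 it was not well above background. IL18 lay at -0.78 and 0.96, and TNIP1, which helps TNFAIP3, at -0.65 and 0.77 with siRNA 1 and siRNA 2. For both, the siRNA arrays lay on opposite sides of 0. IL6 differed by -2.16 (siRNA 1 minus siRNA 2), and by -2.34 in the scanner ratio, where IL18 (-2.73), IL1B (-2.44) and CSF3 (-3.30) lay further apart.

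By size on single arrays, 3 genes reached at least 1 log2 unit with siRNA 1 (RELB, CSF2 and ICAM1) and 3 with siRNA 2 (IL1B, IL6 and SOD2), against 0.945% and 0.592% of genes. No gene of the 35 lay at or below -1 on either, where 2.07% and 1.29% of genes did. These counts depend on the ratio. By the scanner ratio 8 genes reached 1 with siRNA 1 and 11 with siRNA 2, among them TNFAIP3 and IL6 with both, and IL18 lay at -1.42 with siRNA 1. These scanner counts hold genes that passed the filter through the transfected channel alone, which favours a high ratio in advance. They were TNF and CCL2 with siRNA 1, and IL1A, TNF, CSF3 and CCL20 with siRNA 2. With median centring 10 and 6 genes reached 1. No share of all genes stands beside the counts by the scanner ratio and with median centring. IL18 was also below -1 with siRNA 1 with an offset of 10 and with no background correction. With siRNA 1 22 of 31 measured genes lay above 0 (53.4% of all genes did) and with siRNA 2 29 of 33 (51.6% of all). These include genes measured in the transfected channel alone, 3 with siRNA 1 and 5 with siRNA 2. Of the 28 genes measured in the mock channel, 19 lay above 0 with siRNA 1 and 24 with siRNA 2, with medians of 0.44 and 0.36. Over the 31 and 33 genes the medians were 0.38 and 0.35, and 0.76 and 0.62 by the scanner ratio. With median centring in place of loess they were 0.70 and 0.51, but there the median of all genes moved too, to 0.18 and 0.08.

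In MDA-MB-231 a few genes were well above background only in the transfected channel. TNF, the founding ligand of the pathway, was well above background in Cy5 on both si-GINS1 arrays and in no mock channel. Its level was at least 1.14-fold higher than in mock (limma adjusted p 0.102). The bound takes, on each array, the higher of the dim signal and the lowest signal well above background. It compares means over both si-GINS1 arrays and is no bound for a single siRNA. CSF3, the granulocyte growth factor, was at least 1.16-fold higher by these means (limma adjusted p 0.228). Its log2 ratio was 0.03 with siRNA 1 and 0.42 with siRNA 2. IL1A and CCL20 passed in Cy5 with siRNA 2 only, and CCL2 with siRNA 1 only. Their folds, between 1.06-fold and 1.15-fold, average in the array where neither channel passed, so they do not bound the change with the siRNA named. The same holds for VCAM1, which passed with siRNA 2 only and had 1.02-fold.

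**Figure D3:**
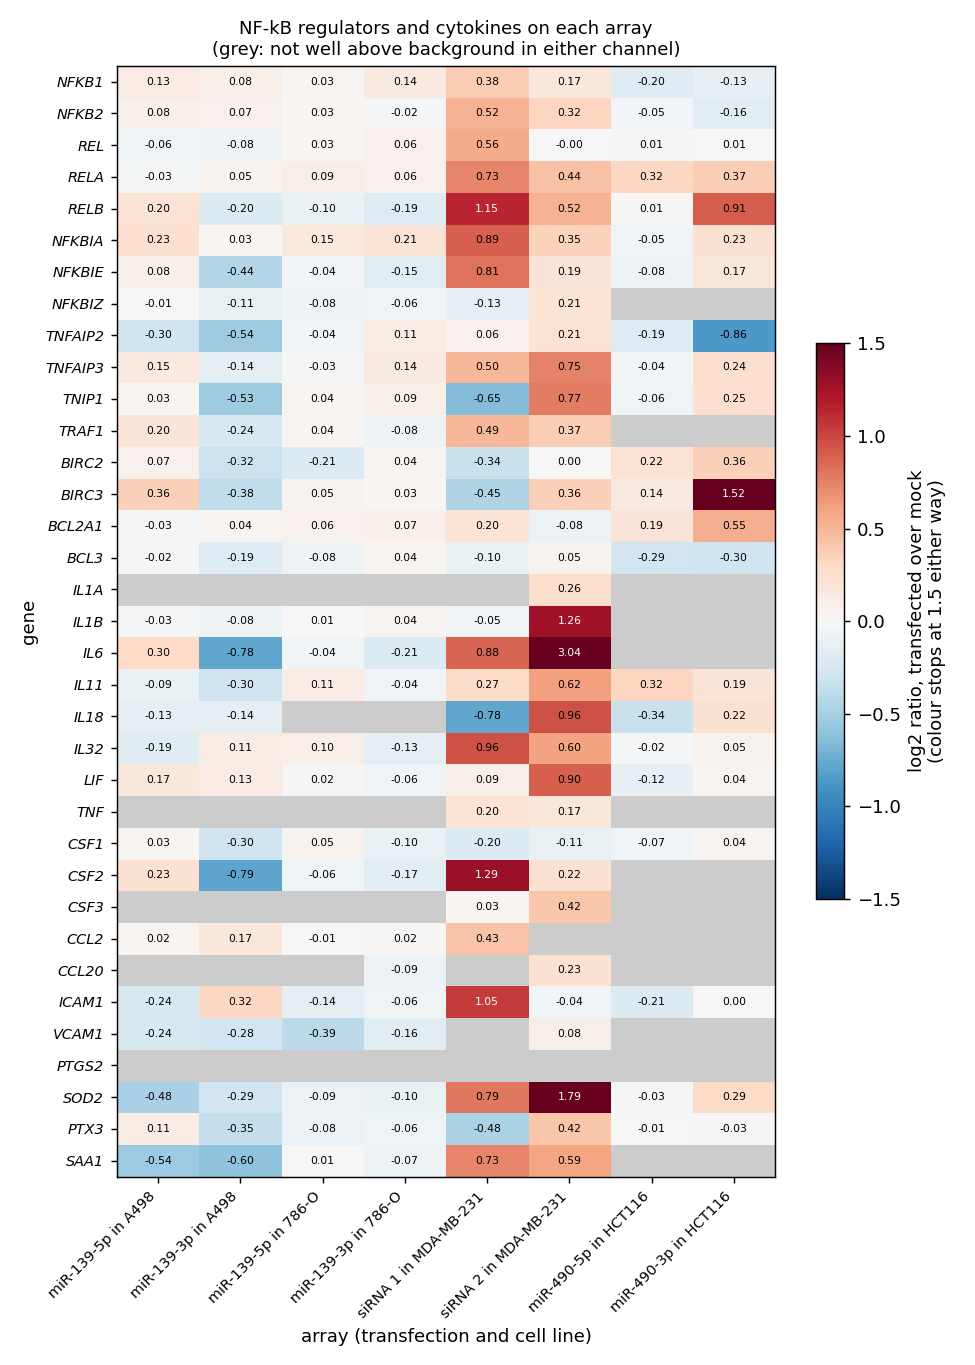
Log2 ratio of transfected over mock for the 35 genes (rows) on the 8 arrays (columns), red above and blue below 0, the number in each cell, and grey where the probe was not well above background in either channel. The si-GINS1 columns hold most of the red cells, up to 3.04 for IL6, and the 786-O columns stay near 0.

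For the miR-490 strands in HCT116, the comparison asks whether both strands of the duplex act on expression. Each strand had 1 array, so values are described by size. With miR-490-3p 1 of 22 measured genes reached 1 log2 unit, against 0.398% of genes, and with miR-490-5p none did, against 0.297%. That gene was BIRC3, an inhibitor of apoptosis and ubiquitin ligase of the pathway (hg19 chr11:102208356-102208415). Its value was 1.52 on the miR-490-3p array and 0.14 on the miR-490-5p array, against 0.36 and -0.38 in A498, -0.45 and 0.36 with siRNA 1 and siRNA 2, and 0.05 and 0.03 in 786-O. The miR-490-3p array was the highest by over 1 log2 unit, at 2.86-fold the mock level.

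Among the subunits, RELB was at 0.91 with the 3p strand against 0.01 with the 5p strand, whereas the others differed little between the strands, from -0.11 for NFKB2 to 0.07 for NFKB1. BCL2A1, a relative of BCL2 that blocks apoptosis, was at 0.55 against 0.19, while its second probe was not well above background. TNFAIP2, a gene induced by tumour necrosis factor, lay lower, at -0.86 against -0.19. The median of the 22 genes was 0.18 for the 3p strand and -0.05 for the 5p strand, against 0.01 for all genes on either array. As a difference between the strands, BIRC3 (1.38) was the only gene past 1, where 0.837% of genes were.

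By the scanner ratio TNFAIP3 joined BIRC3 at 1.51 with miR-490-3p, and with median centring RELB did. The cytokines could hardly be followed here, since IL1A, IL1B, IL6, TNF, CSF2, CSF3, CCL2 and CCL20 were not well above background in either channel of either array. In 5p then 3p order, IL32 lay at -0.02 and 0.05, LIF at -0.12 and 0.04, and IL18 at -0.34 and 0.22.

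With miR-139, limma called 0 of 29 tested genes for either strand against mock, where its calls were 0.0164% of genes for the 5p strand and 0% for the 3p strand. At an unadjusted p under 0.05 there was 1 gene for the 5p strand (VCAM1, mean -0.32) and 2 for the 3p strand (VCAM1 at -0.22 and CSF1 at -0.20). Those were 1 and 2 of 29, near the 2.82% and 4.89% of all genes. By size, 0 genes passed 1 log2 unit in either direction on any miR-139 array. By the scanner ratio CSF2 (-1.24), NFKBIZ (-1.08) and SAA1 (-1.06) lay below -1 after miR-139-3p in A498, and CSF2 did so with an offset of 10 and with no background correction. By the ratio behind the count of 0, 0.0717% and 0.175% of all genes lay at or below -1 in A498 (5p and 3p). In 786-O 0.0412% and 0.0307% did. No share of all genes stands beside the genes named by the scanner ratio and the other alternatives. The contrast of the strands also called 0 of 29 genes against 0% of all, with TRAF1 alone under an unadjusted p of 0.05 (0.703% of all genes), lower with miR-139-3p by -0.28. CSF1, the macrophage growth factor, had 2 further probes, which differed in sign from the first on some arrays. With miR-139-5p in A498 the probes lay at 0.03, -0.18 and -0.13.

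The lines differed in how far the genes spread, and so they did over all genes. The difference between the strands had an SD of 0.21 over all genes in A498 and 0.09 in 786-O. Among the members measured on both arrays it was 0.36 and 0.12. In 786-O the values stayed between -0.39 and 0.15 for the 5p strand and between -0.21 and 0.21 for the 3p strand. In A498 they ran from -0.54 (SAA1) to 0.36 (BIRC3) for 5p and from -0.79 (CSF2) to 0.32 (ICAM1) for 3p. In A498 21 of 30 genes lay below 0 and 9 above with miR-139-3p, where 51.9% of all genes lay above 0. With miR-139-5p 14 lay below 0 and 16 above, where 52.9% of all genes lay above 0. The medians of the 30 genes were -0.20 (3p) and 0.03 (5p), against 0.01 for all genes on either array. With miR-139-3p their median was -0.31 by the scanner ratio and -0.11 with median centring, where that of all genes was 0.03 and 0.04.

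IL6 and CSF2 parted most between the strands in A498. IL6 was at 0.30 after 5p and -0.78 after 3p, and CSF2 was at 0.23 and -0.79. Their differences of -1.08 and -1.02 were the only ones past 1 in size among the 30 genes, where 0.174% of genes lay that low and 0.0767% that high. In 786-O the same genes lay at -0.04 and -0.21 (IL6) and at -0.06 and -0.17 (CSF2), and 0 of 29 genes differed by 1. BIRC3 and ICAM1 also lay on opposite sides of 0 with the strands in A498. BIRC3 went from 0.36 to -0.38 and ICAM1 from -0.24 to 0.32, whereas SOD2 (-0.48 and -0.29) and SAA1 (-0.54 and -0.60) were low with both.

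**Figure D4:**
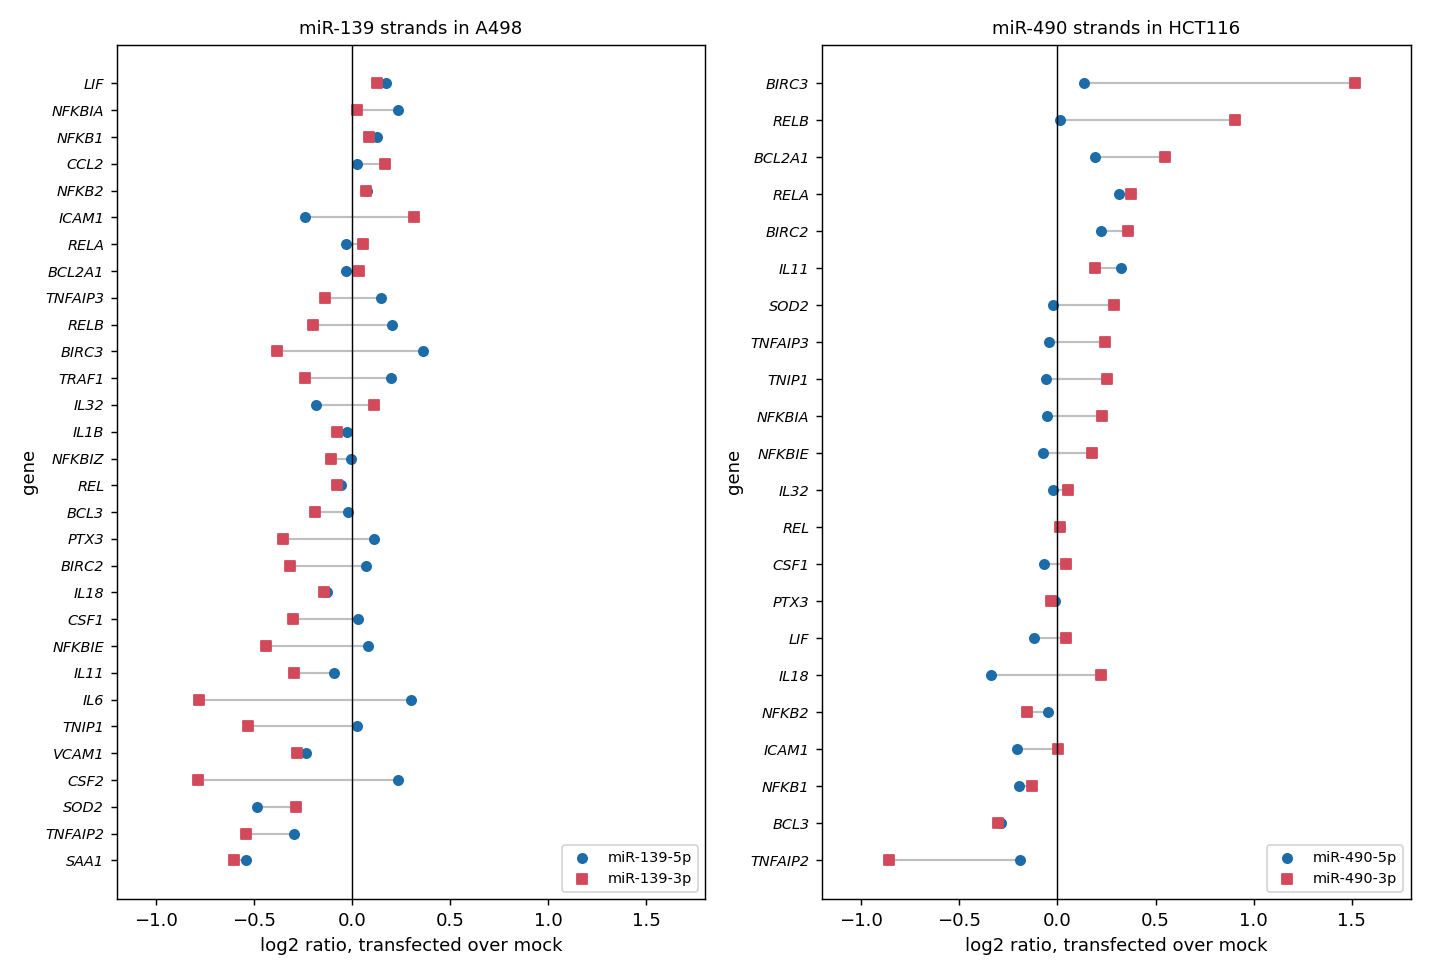
Log2 ratio of transfected over mock (x axis) for each gene measured with both strands, for miR-139 in A498 (left) and miR-490 in HCT116 (right), with circles for 5p and squares for 3p, 1 array each, ordered by their mean. IL6 and CSF2 in A498 and BIRC3 and RELB in HCT116 show the widest gaps.

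Another 23 genes neither passed a test nor reached 1 log2 unit, and are given by their range over the arrays where they were measured. NFKBIA lay between -0.05 and 0.89, NFKBIE between -0.44 and 0.81 and REL between -0.08 and 0.56, each highest with siRNA 1. LIF, IL11, IL18, TNIP1 and PTX3 were each highest with siRNA 2, from -0.12 to 0.90 for LIF, -0.30 to 0.62 for IL11, -0.78 to 0.96 for IL18, -0.65 to 0.77 for TNIP1 and -0.48 to 0.42 for PTX3. The second probe of LIF lay at 0.11 there against 0.90 for the first. NFKBIZ (-0.13 to 0.21), BIRC2 (-0.34 to 0.36) and BCL3 (-0.30 to 0.05) had narrow ranges, as did NFKB1 (-0.20 to 0.38) and CSF1 (-0.30 to 0.05). BCL2A1 ran from -0.08 to 0.55 and TNFAIP2 from -0.86 to 0.21. VCAM1, measured on 5 arrays, ran from -0.39 to 0.08, and CCL2, also on 5, from -0.01 to 0.43. TNF (0.17 and 0.20) and CSF3 (0.03 and 0.42) were measured on the si-GINS1 arrays only, CCL20 on 2 arrays (-0.09 and 0.23), IL1A on 1 (0.26) and PTGS2 on none. SAA1 ranged from -0.60 with miR-139-3p in A498 to 0.73 with siRNA 1.

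Upstream of the dimers, 31 other genes of the pathway were taken as a list of receptors, adaptors and kinases, and inhibitors. With si-GINS1 limma called 3 of 31, all higher, beside 7.40% of all genes. TRAF3, an adaptor that restrains the non-canonical route, had a mean of 0.53 ± 0.16 (SD, n = 2; limma adjusted p 0.0259). LTBR, the lymphotoxin beta receptor, lay at 0.50 ± 0.18 (limma adjusted p 0.0322 over the same arrays) and TRAF6, the ubiquitin ligase of interleukin-1 signalling, at 0.29 ± 0.05 (limma adjusted p 0.0358). The median of the list was 0.06. None of the 3 was called with the scanner ratio, under a robust prior with a variance trend, in a fit of the si-GINS1 arrays alone or with dye bias removed. TRAF3 alone was called with an offset of 10 or no background correction.

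By size, IL1RAP, the accessory chain of the interleukin-1 receptor, lay at 1.73 with siRNA 2 and -0.17 with siRNA 1. NFKBIB, another IkB inhibitor, lay at 1.12 with siRNA 1 and 0.29 with siRNA 2. RBCK1, a subunit of the linear ubiquitin ligase, was low on both HCT116 arrays, at -1.72 (5p) and -1.62 (3p), where 1.09% and 0.672% of genes were at or below -1. On the other 6 arrays it lay between -0.37 and 0.02. IRAK1, the interleukin-1 receptor kinase that the study followed up, is named here for that reason and lay at -0.34 (5p) and -0.63 (3p) in HCT116. The paper listed a larger fall of IRAK1 for miR-490-3p in HCT116. It also reported reduced IRAK1 mRNA and protein and a reporter assay of its site. The values here are those of the brightest probe under the processing given below. With either miR-139 strand 0 of 29 tested genes of the list were called by limma.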

How the data were processed

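All 8 arrays lay on 1 slide. The authors processed the scan with Agilent Feature Extraction 11.5.1.1 (per the file headers), and the deposited intensity columns are the mean spot brightness and the median local background per channel, not normalized. The deposited log10 ratios of Cy5 over Cy3 served as an alternative (scanner ratio, turned into log2), and the deposited series table held the same values. The flag columns the authors deposited (other) marked spots well above background or as outliers. Here, background was corrected (normexp, offset 50), ratios were normalized by loess and spots averaged per probe in limma 3.58.1 under R 4.3.3. Between 169 and 272 outlier spots per array were left out and 0 were saturated. The 3 groups of 2 arrays were tested by limma in 1 fit of 8 arrays (3 residual degrees of freedom), on probes that each array of the group showed well above background in 1 channel or both, with Benjamini-Hochberg adjustment over all probes and a threshold of 0.05. Groups of 1 array were described by a size of 1 log2 unit. Mock levels used Aquantile. Genes called by limma or past that size were described on every array. The scripts were tested on simulated data. The genes and lists were chosen with earlier results of these data known.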

Additional observations from a re-analysis of the deposited data

Results flagged for a closer look

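For REL and IL1B both miR-139 arrays of A498 lay on 1 side of 0 and both of 786-O on the other. REL had log2 ratios of -0.06 (5p strand) and -0.08 (3p strand) in A498, against 0.03 and 0.06 for 786-O, so that A498 minus 786-O was -0.114. IL1B had -0.03 and -0.08 in A498, against 0.01 and 0.04 for 786-O, a gap of -0.0792. The differences were not tested, and each value is under 0.1 in size. REL and IL1B are among 29 genes measured on every miR-139 array. No share of all genes with this pattern stands beside them.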

How the results depend on the processing

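The number of the 35 genes that limma called with si-GINS1 (5) moved further than any other count. It was 8 with median centring, with an offset of 10 and with no background correction. Of all genes, 5.74% were called with the offset and 6.33% without correction. With median centring the share of all genes was higher than both, and above the 7.4% of the fit reported here. The count was 2 with no filter on dim probes (3.13% of all genes). It was 0 with the scanner ratio (0.29%) and with dye bias removed (2.54%). It was also 0 under a robust prior with a variance trend and with the si-GINS1 arrays alone. Leaving out 1 of the si-GINS1 arrays gave between 16 and 17 (24.5% and 33.2% of all genes). With cell line as a random block it gave 21, 1 of them lower (38.7% of all genes), under an estimated correlation of -0.67 that the design confounds with the groups. All 5 genes were among those called with median centring, offset 10, no background correction, each array left out and the block. Of the genes named for size, the si-GINS1 mean of IL1B ran from -0.0503 without the siRNA 2 array to 1.26 without that of siRNA 1, and the mean of ICAM1 from -0.0433 without the siRNA 1 array to 1.05 without that of siRNA 2. With miR-490-3p 2 genes reached the size of 1 by the scanner ratio and 2 with median centring, in place of 1, and the difference between the miR-490 strands likewise counted 2 and 2 in place of 1. The siRNAs differed by 1 in 11 genes by the scanner ratio, in place of 7. Among the 31 other pathway genes the block called 18, beside the 38.7% of all genes given above. Alternatives for medians and size counts on single arrays and for the other pathway genes were chosen after seeing the data. The causes were not tested. The miR-139 groups kept 0 calls under every alternative run. The cell line pairs the miR-139 arrays, with deviations correlated at 0.0753 over 22179 probes, and with cell line as a block the contrast of the strands called 0 of its genes, so that the block changed no call. Dim probes limit several cytokines, since the offset and the scanner ratio part there.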
